A study of Paxillus involutus with 18 samples.

Results

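The response of *Paxillus involutus* to carboxy methyl cellulose (CMC), a soluble cellulose derivative, was examined by comparing the 3 arrays of mycelium held in CMC with the 3 arrays of mycelium held in Minimum Melin Norkrans medium (MMN) on the same slide. These are 6 of the 18 arrays of the study, chosen by their titles, and every one of the 12214 isotigs on the array was compared. An isotig is an assembled transcript, and several isotigs can stand for splice variants of 1 gene. All arrays hold total RNA of wild-type mycelium of 1 strain, ATCC 200175, grown axenically on glass beads for 9 days in MMN, kept without N for 24 h and then incubated for 7 days in the test medium. The MMN group was returned to MMN, a mineral salt medium that supplies glucose and ammonium. The CMC medium was also supplied with glucose. The sources used here do not state whether it held a N source, so the effect of cellulose and of other differences between the media cannot be told apart. The other groups of the study, with 3 arrays each, are mycelium held in a hot water extract of forest litter (FH), in a hot (MH) or cold (MC) water extract of maize compost, and in MMN on the other slide. MC, CMC and 1 set of MMN arrays lie on slide 2, each group on neighbouring positions of the slide, so position and medium cannot be told apart there. The medium field of the 3 MMN arrays of slide 2 holds the strain, and 1 MC array has a description that names MH. The titles were used for both.

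*Pa. involutus* is an ectomycorrhizal basidiomycete that receives sugar from tree roots and takes up N and minerals from soil. Fungi open cellulose by hydrolysis, with endoglucanases that cut inside the chain, and by oxidation, with the copper enzymes first classed as GH61. Brown-rot fungi also use the Fenton reaction, in which ferrous iron and hydrogen peroxide give hydroxyl radicals that attack cellulose and lignin. Such a system draws on iron reduction and uptake, on oxidases that make peroxide, on organic acids that bind iron, and on phenolic compounds and the enzymes that act on them.

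The mycelium on CMC differed from that on MMN in few transcripts by a large factor and in many by a small one. Calls required an adjusted p under 0.01 together with a difference over 2-fold, which is 1 on the log2 scale. By this rule 203 isotigs (1.66% of 12214) were called higher on CMC and 43 (0.352%) lower, 246 in all (2.01%). Every isotig that differed over 2-fold also had an adjusted p under 0.01, so the fold threshold alone set these counts. The isotigs called higher had a median log2 fold change of 1.20, and 166 of them lay under 1.5. Falls were fewer and larger, with a median of -1.49. At an adjusted p under 0.01 alone the balance turned, with 2320 isotigs higher (19%) and 2665 lower (21.8%). In the same way the 3 CMC arrays all lay above the 3 MMN arrays for 25.8% of isotigs and all below them for 38.7%. The log2 difference had a median of -0.07 over all isotigs, with 25% of them under -0.21 and 25% over 0.15. It varied with signal level on the arrays outside the comparison. In steps of 25% of isotigs from dim to bright, the median was -0.11, -0.10, -0.05 and 0.03. The values were normalized between arrays, and whether this made part of the small falls was not tested.

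**Figure D1:**
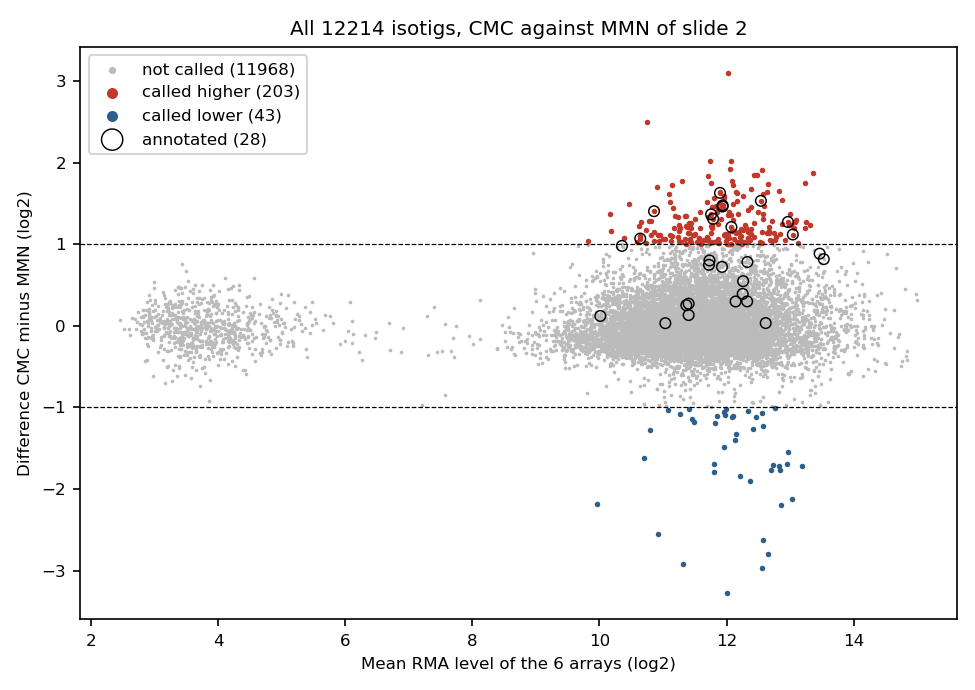
Difference between CMC and MMN (log2, y axis) against the mean RMA level of the 6 arrays (log2, x axis), 1 point per isotig, with dashed lines at 2-fold. The 203 isotigs called higher and the 43 called lower all have a mean level of 9.82 or more, and the 728 isotigs under a level of 8 hold no call.

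The values, taken as log2 levels, were made by robust multi-array average (RMA), and the number of arrays limits their precision. The array medians were 11.46 to 11.47 on all 6 arrays and the random control probes read 3.70 to 3.76. A group of 728 isotigs had a mean level under 8, and none of these was called on CMC by limma, although 99 had an unadjusted p under 0.05. On the MMN arrays of slide 1, which did not enter the comparison, the isotigs called higher on CMC had a median level of 11.32 and those called lower one of 12.76, against 11.47 over all isotigs. Levels of different isotigs rest on different probes, so these medians describe signal and not transcript abundance.

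The arrays separated by medium. The root mean square difference between a CMC and a MMN array was 0.323 to 0.426 on the log2 scale, against 0.124 to 0.142 between CMC arrays and 0.146 to 0.180 between MMN arrays. A principal component analysis of the 6 arrays put 82.1% of the variance on its leading axis, where the CMC arrays scored 16.9, 22.4 and 18.4, and the MMN arrays -19.5, -22.8 and -15.4. CMC replicate 2 and MMN replicate 2 were thus farthest apart and MMN replicate 3 was nearest to CMC. Among the isotigs called higher, MMN replicate 3 was the highest MMN array for 143 of 203, against 33.4% of all isotigs. CMC replicate 2 was the highest CMC array for 147, against 36.8%. The 203 were chosen on these same arrays, so a CMC array that read high could itself bring isotigs into the set. The MMN arrays of slide 1, which did not enter the comparison and carry the same replicate numbers, had replicate 3 highest for 135 of the 203, against 34.1% of all isotigs. The labels do not state whether both slides carry the same MMN cultures. The count of isotigs called higher was 241 without MMN replicate 3, 174 without MMN replicate 2 and 181 without CMC replicate 2.

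Enzyme names from the study's annotation were at hand for 28 isotigs, which are only a part of the isotigs that the study annotated, so counts over the 28 do not describe its full list. The study listed these isotigs because they rose on at least 1 extract, and MC was compared with the same MMN arrays as CMC, so their direction on CMC is not independent evidence. Of the 28, 11 were called higher on CMC and none lower, by limma. Over all isotigs 1.66% were called higher. By level on the arrays outside the comparison, this share was 0.164% in the dimmest 25% of isotigs and 3.93% in the brightest 25%. The 28 were not matched to other isotigs for level. At an adjusted p under 0.01 alone 22 were higher, against 19% of all isotigs, and none lower, against 21.8%, and no isotig was lower at an unadjusted p under 0.05. Their median log2 fold change was 0.81, against -0.07 over all isotigs. The isotigs include 5 pairs that each belong to 1 isogroup, the study's term for a gene, so they are not 28 separate genes.

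**Figure D2:**
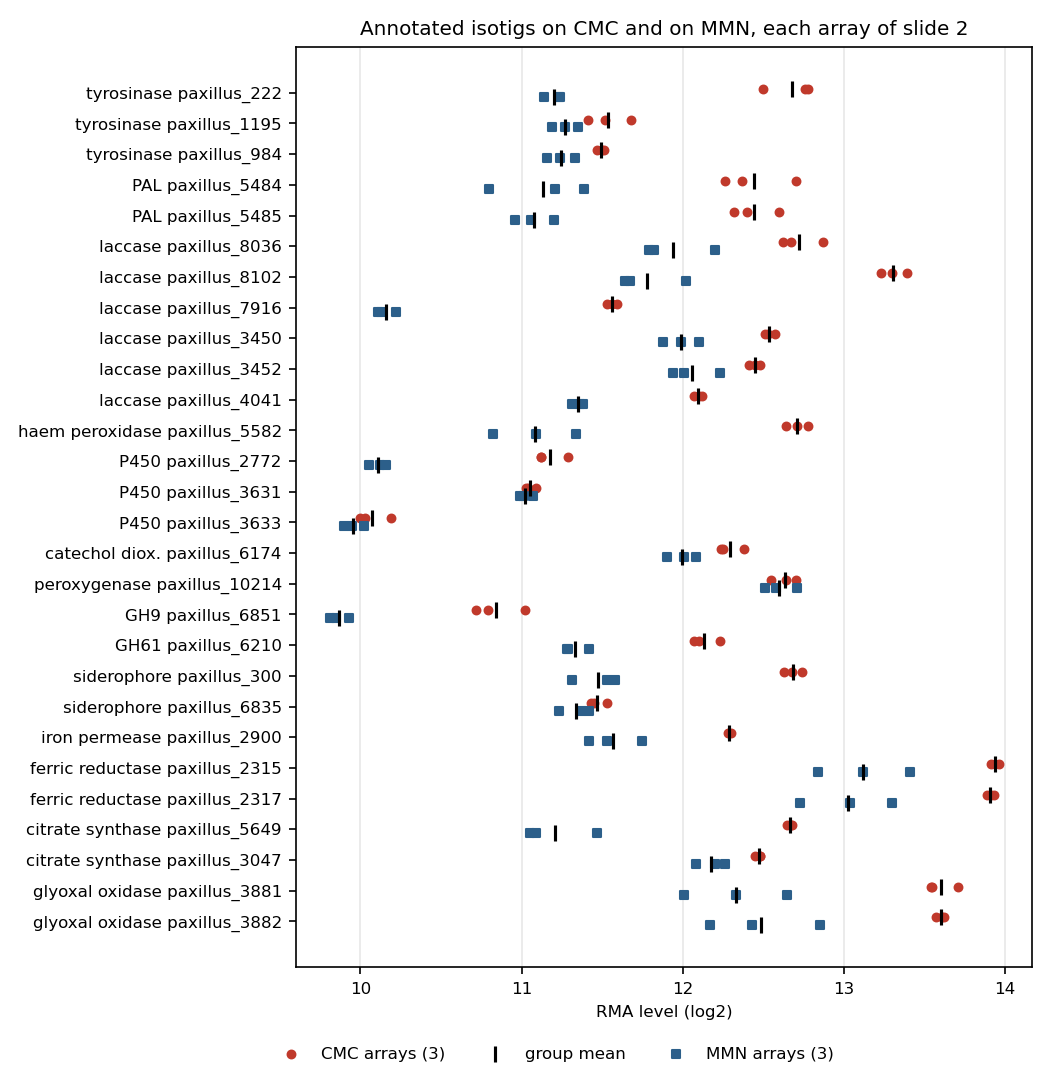
RMA level (log2, x axis) of the 28 annotated isotigs on each of the 3 CMC arrays (circles) and the 3 MMN arrays of slide 2 (squares), with group means as bars. All 3 CMC arrays lie above all 3 MMN arrays for 25 of the 28, against 25.8% of all isotigs. The 28 come from a list chosen for rises.

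Both enzymes that act on cellulose had higher levels on CMC, and neither reached 2-fold. The GH9 endoglucanase paxillus_6851 read 10.79, 11.02 and 10.72 on the CMC arrays and 9.85, 9.81 and 9.93 on the MMN arrays. All CMC arrays lay above all MMN arrays, and the log2 fold change was 0.98 (standard error 0.07, 95% interval 0.82 to 1.13, adjusted p = 7.2e-09 from limma). It stood so near the threshold that leaving out CMC replicate 1, CMC replicate 3 or MMN replicate 3 gave 1.00 to 1.04 and a call, as did a repeated quantile normalization, while it was 0.89 without CMC replicate 2 and 0.79 with the MMN arrays of slide 1 as control. GH61 paxillus_6210 read 12.07, 12.23 and 12.10 on CMC and 11.29, 11.28 and 11.42 on MMN. The groups did not overlap here either, and its log2 fold change was 0.80 (interval 0.65 to 0.95, adjusted p = 6.3e-08). Neither rise was particular to CMC. Against the MMN arrays of the same slide, the GH9 isotig had log2 fold changes of 1.27 on MC, 0.74 on FH and 0.93 on MH. For the GH61 isotig these were 0.21 on MC, 0.60 on FH and 1.21 on MH. The files do not state the base of the logarithm. Values were taken as log2, since as natural logarithms 63.5% to 66.3% of the isotigs of an array would exceed a 16-bit image. Both isotigs would pass 2-fold, at 0.69, only if the base were the natural one.

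Glyoxal oxidase, a copper enzyme that forms hydrogen peroxide while it oxidises small aldehydes, was called higher with both isotigs of its isogroup. The isotig paxillus_3881 read 13.71, 13.55 and 13.54 on CMC and 12.33, 12.01 and 12.65 on MMN, a log2 fold change of 1.27 (interval 1.01 to 1.54, adjusted p = 2.7e-07 from limma). The CMC arrays lay close together and the MMN arrays spread over more than 0.5 units, with replicate 3 the highest. For paxillus_3882 the levels were 13.57, 13.62 and 13.61 on CMC and 12.43, 12.17 and 12.85 on MMN. Its log2 fold change was 1.12 (adjusted p = 9.1e-06), and the call ended, at 0.96, without MMN replicate 2 and, at 0.99, with the MMN arrays of slide 1 as control.

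The citrate synthases, which form citrate from acetyl-CoA and oxaloacetate, did not change by equal amounts. Isotig paxillus_5649 read 12.65, 12.68 and 12.67 on CMC and 11.09, 11.05 and 11.47 on MMN, so that the CMC arrays agreed to within 0.03 and lay more than 1 unit above every MMN array. The log2 fold change was 1.46 (interval 1.22 to 1.70, adjusted p = 1.3e-08 from limma). Isotig paxillus_3047 read 12.48, 12.48 and 12.45 on CMC and 12.20, 12.08 and 12.26 on MMN, a log2 fold change of 0.30 (interval 0.16 to 0.44, adjusted p = 0.0013), well under 2-fold. Its adjusted p was 0.010 without MMN replicate 2 and 0.020 with the MMN arrays of slide 1 as control, both above the threshold.

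Of 5 isotigs for iron, 1 was called higher on CMC (1.66% of all isotigs) and 4 were higher at an adjusted p under 0.01 (19% of all isotigs). Siderophore isotig paxillus_300, from the study's group for small molecules that bind ferric iron, read 12.68, 12.74 and 12.63 on CMC and 11.53, 11.31 and 11.58 on MMN. Its log2 fold change was 1.21 (interval 1.04 to 1.38, adjusted p = 1.6e-09 from limma), and was 0.94 with the MMN arrays of slide 1 as control, which ended the call. Siderophore isotig paxillus_6835 read 11.45, 11.43 and 11.53 on CMC and 11.37, 11.23 and 11.42 on MMN. The groups lay side by side without overlap, and the log2 fold change of 0.13 had an interval from -0.01 to 0.27 (adjusted p = 0.11). The iron permease paxillus_2900, which carries iron into the cell, read 12.28, 12.29 and 12.30 on CMC and 11.53, 11.42 and 11.75 on MMN, a log2 fold change of 0.72 (adjusted p = 1.4e-07).

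The ferric reductases paxillus_2315 and paxillus_2317, which reduce ferric to ferrous iron, belong to 1 isogroup. The isotig paxillus_2315 read 13.94, 13.96 and 13.91 on CMC and 13.12, 12.84 and 13.41 on MMN. The spread was 0.02 (SD, n = 3) on CMC and 0.29 (SD, n = 3) on MMN, with MMN replicate 2 lowest and replicate 3 highest. The log2 fold changes were 0.82 (adjusted p = 2.3e-05) for paxillus_2315 and 0.88 (adjusted p = 9.5e-06) for paxillus_2317. Without MMN replicate 3 the value of paxillus_2317 was 1.02 and passed 2-fold, and without MMN replicate 2 it was 0.74. For paxillus_2315 these values were 0.96 and 0.67. Over all isotigs the median SD was 0.063 on CMC and 0.071 on MMN, and it was 0.074 and 0.122 among the isotigs called higher. Because limma used 1 estimate of the spread for all 6 groups, a wider spread on MMN is not fully reflected in these p-values.

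Enzymes that act on aromatic compounds made up 17 of the 28 isotigs. Of these 7 were called higher on CMC (1.66% of all isotigs), 12 were higher at an adjusted p under 0.01 (19% of all isotigs), and 5 did not pass it. The largest rise of the 28 was that of paxillus_5582, a haem peroxidase that uses hydrogen peroxide as its oxidant. It read 12.64, 12.71 and 12.78 on CMC and 11.09, 10.82 and 11.34 on MMN, a log2 fold change of 1.63 (interval 1.39 to 1.86). The lowest CMC array was more than 1 unit above the highest MMN array.

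The laccases, multicopper oxidases of phenols, were higher at an adjusted p under 0.01 with all 6 isotigs (19% of all isotigs passed this rule). Of the 6, 2 were called higher (1.66% of all isotigs). Laccase paxillus_8102 read 13.30, 13.39 and 13.23 on CMC and 11.67, 11.64 and 12.02 on MMN, a log2 fold change of 1.53 (interval 1.34 to 1.72, adjusted p = 3.6e-10 from limma). Laccase paxillus_7916 read 11.56, 11.59 and 11.53 on CMC and 10.13, 10.22 and 10.11 on MMN, with a tight spread in both groups and a log2 fold change of 1.40 (interval 1.27 to 1.53). The other laccases were not called. Their log2 fold changes were 0.78 for paxillus_8036, 0.75 for paxillus_4041, 0.55 for paxillus_3450 and 0.39 for paxillus_3452, the latter pair from 1 isogroup. The adjusted p of paxillus_3452 was 0.0039, and it lay between 0.0101 and 0.0199 when any 1 of the 6 arrays other than MMN replicate 1 was left out. With the MMN arrays of slide 1 as control, paxillus_8036 and paxillus_4041 passed 2-fold, at 1.22 and 1.21. For paxillus_4041 the MMN arrays of slide 2 were themselves 0.46 above those of slide 1 (adjusted p = 4.5e-04).

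Tyrosinases, which oxidise phenols to quinones in melanin and pigment formation, divided on CMC. Tyrosinase paxillus_222 read 12.78, 12.50 and 12.76 on CMC and 11.24, 11.23 and 11.14 on MMN, and was called higher with a log2 fold change of 1.48 (interval 1.33 to 1.62). Tyrosinases paxillus_1195 and paxillus_984 had log2 fold changes of 0.27 (interval 0.04 to 0.50, adjusted p = 0.044) and 0.25 (interval 0.03 to 0.48, adjusted p = 0.051), and neither was called. On both isotigs the CMC arrays lay just above the MMN arrays.

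Phenylalanine ammonia lyase, which takes ammonia from phenylalanine and opens the route to cinnamic acids, was called higher with both isotigs of its isogroup. The isotig paxillus_5485 read 12.32, 12.60 and 12.40 on CMC and 10.96, 11.06 and 11.20 on MMN, and the log2 fold changes were 1.37 for paxillus_5485 and 1.31 for paxillus_5484. In the 5 isogroup pairs the log2 fold changes of the members differed by 0.05 to 0.16 in size, the widest gaps being those of laccases paxillus_3450 and paxillus_3452 and of the glyoxal oxidases. It was not examined whether probes of paired isotigs target the same stretch of transcript.

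Cytochrome P450 monooxygenases, haem enzymes that insert oxygen into many substrates, had 1 call in 3 isotigs (1.66% of all isotigs were called higher). Isotig paxillus_2772 read 11.12, 11.29 and 11.12 on CMC and 10.12, 10.05 and 10.16 on MMN, a log2 fold change of 1.07 (interval 0.93 to 1.21). With the MMN arrays of slide 1 as control it fell just short of 2-fold. The pair paxillus_3631 and paxillus_3633 had log2 fold changes of 0.03 (interval -0.18 to 0.25) and 0.12 (interval -0.11 to 0.34), and their CMC and MMN arrays overlapped. The same was true of the aromatic peroxygenase paxillus_10214, which transfers oxygen from peroxide to aromatic rings, with 12.55, 12.70 and 12.64 on CMC, 12.58, 12.51 and 12.71 on MMN and a log2 fold change of 0.03 (interval -0.15 to 0.21). For paxillus_6174, a catechol dioxygenase and thus a ring-opening enzyme, the data gave a log2 fold change of 0.30 (interval 0.14 to 0.46, adjusted p = 0.0034), and the adjusted p was 0.022 without MMN replicate 2 and 0.023 without CMC replicate 2.

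The extremes of the comparison lie outside the annotated isotigs, and the files and the reference table pair these isotigs with no gene name. The isotig with the largest rise, paxillus_10, read 13.58, 13.63 and 13.52 on CMC and 10.34, 10.17 and 10.93 on MMN. It was 8.56-fold higher (adjusted p = 2.1e-11 from limma), or 3.10 ± 0.14 (standard error) on the log2 scale, and was the only isotig to rise over 8-fold. The next, paxillus_316, had a log2 fold change of 2.50. The isotig with the largest fall, paxillus_47, read 10.44, 10.27 and 10.38 on CMC and 13.46, 13.75 and 13.71 on MMN, a log2 fold change of -3.28 (adjusted p = 1.4e-13). The isotig paxillus_650 read 11.17, 11.10 and 10.94 on CMC and 13.99, 14.07 and 14.05 on MMN, a log2 fold change of -2.97. Against the MMN arrays of its own slide, each extract gave paxillus_10 a log2 fold change of similar size, with 3.24 on MC, 2.73 on FH and 3.22 on MH. For paxillus_47 these were -3.32 on MC, -3.26 on FH and -3.45 on MH. MC shares its MMN arrays with CMC.

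To ask where CMC parted from the extracts, CMC was compared with MC directly, since both lie on slide 2, and with FH and MH through the difference of their changes from the MMN of their own slide. CMC was called above MC for 38 isotigs (0.311%) and below it for 100 (0.819%). The change on CMC was called above that on FH for 6 isotigs (0.0491%) and below it for 23 (0.188%), and above that on MH for 15 (0.123%) and below it for 74 (0.606%). The MMN groups of the slides, compared with each other, had 10 isotigs called higher on slide 2 (0.0819%) and 1 lower (0.00819%). Of the 203 isotigs called higher on CMC, 192 were not called between CMC and MC, 199 not between CMC and FH and 197 not between CMC and MH. Of the 43 called lower the numbers were 41, 37 and 40. The adjusted p itself was 0.01 or more for 138, 158 and 151 of the 203, and for 19, 25 and 30 of the 43. The remaining uncalled isotigs missed only the fold threshold. Missing the threshold is no evidence that CMC and an extract acted alike.

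Against the MMN arrays of their own slides, 18 of the 28 annotated isotigs were called higher on MC, 10 on FH and 18 on MH, where the shares over all isotigs were 2.81%, 0.966% and 4.49%. By the study's legend these contrasts are the ones on which the 28 were chosen, though not all of the 28 were called on an extract here. In the direct comparison 8 of the 28 were called lower on CMC than on MC, all of them from the 17 for aromatic compounds. They are tyrosinases paxillus_222 and paxillus_1195, both phenylalanine ammonia lyases, laccase paxillus_8036, P450 isotigs paxillus_3631 and paxillus_3633 and the aromatic peroxygenase. The background for this direction is 0.819% of isotigs, and by the study's legend the 28 had been chosen for rises on an extract. The change on CMC was also called below that on MH for 5 of them (0.606% of all isotigs) and below that on FH for 2 (0.188%). None was called above any extract. Judged by the adjusted p (under 0.01) without the fold threshold, 18 annotated isotigs were lower on CMC than on MC, including the 8 called. Over the whole array 983 of 12214 isotigs were lower by this rule. For 6 annotated isotigs the adjusted p was 0.01 or more. The other 4 were higher on CMC than on MC, a direction taken by 8.88% of all isotigs. Iron permease paxillus_2900 was 0.73 higher on the log2 scale (adjusted p = 2.2e-07 from limma) and GH61 paxillus_6210 0.59 higher (adjusted p = 4.7e-06). Citrate synthase paxillus_5649 was 0.56 higher (adjusted p = 0.0012) and laccase paxillus_4041 0.45 higher (adjusted p = 6.5e-05). None of these 4 was higher by this rule against FH or MH, and GH61 differed from MH by -0.41 (adjusted p = 0.0040). Of the 28, 2 were above FH and 2 below it, while none were above MH and 11 below it. Over the whole array 305 isotigs differed from FH and 2943 from MH by this rule, in either direction. The glyoxal oxidases paxillus_3881 and paxillus_3882 differed between CMC and MC by -0.03 (95% interval -0.29 to 0.24) and -0.04 (interval -0.36 to 0.28), and laccase paxillus_8102 by -0.06 (interval -0.25 to 0.13).

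**Figure D3:**
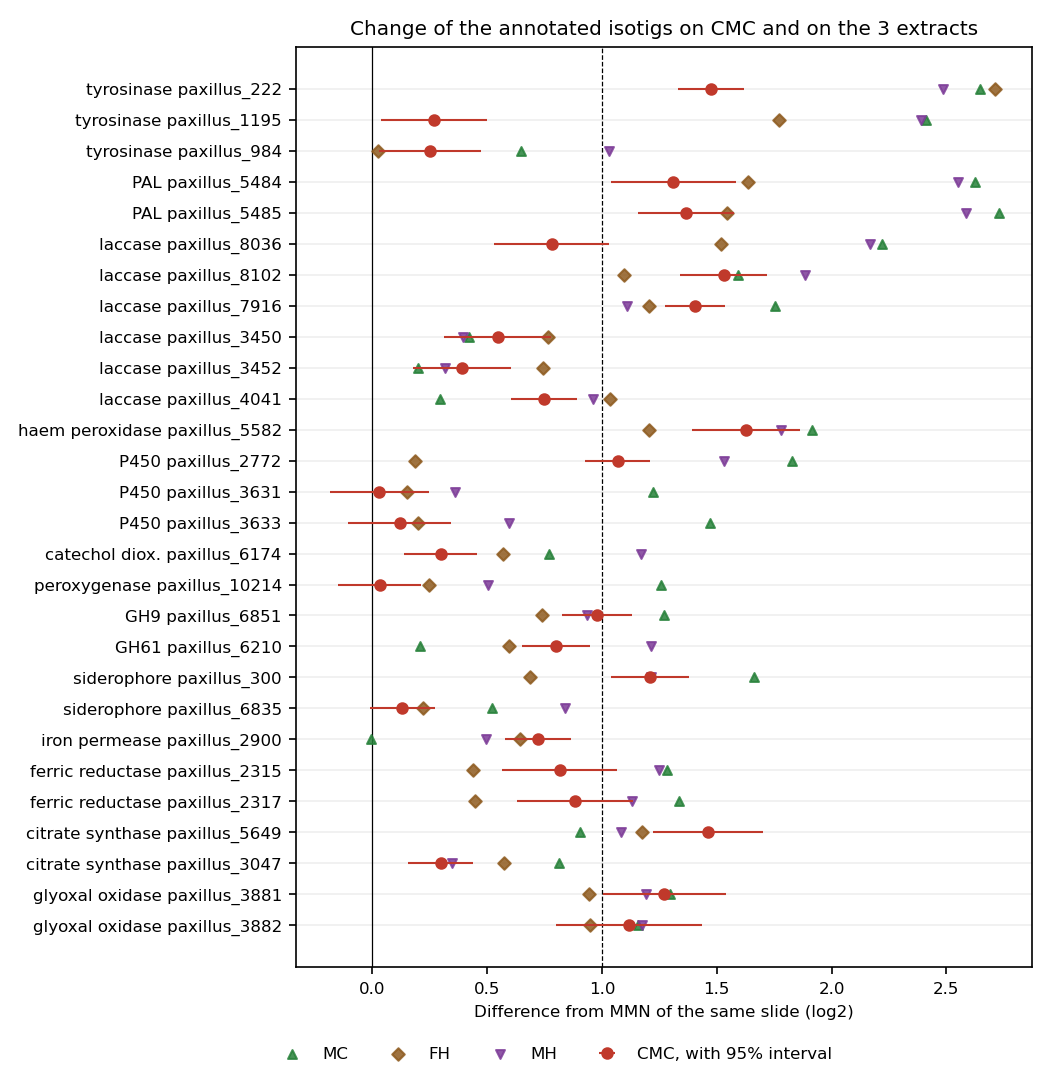
Difference from the MMN arrays of the same slide (log2, x axis) for the 28 annotated isotigs on CMC (circles with 95% intervals), MC (upward triangles), FH (diamonds) and MH (downward triangles), with a dashed line at 2-fold. Tyrosinases paxillus_222 and paxillus_1195 lie to the left of all 3 extracts on CMC, while the glyoxal oxidases lie close together on MC, MH and CMC.

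In 5 isotigs CMC was called apart from all 3 extracts in the same direction, with 2 below (0.0164%) and 3 above (0.0246%). They were picked out after their values were seen. Tyrosinase paxillus_1195 read 11.41, 11.52 and 11.68 on CMC, and 13.69, 13.72 and 13.63 on MC. Its change on CMC differed by -2.14 from that on MC (95% interval -2.37 to -1.91), by -1.50 from that on FH and by -2.12 from that on MH, so that CMC lay near MMN and the extracts far above it. Tyrosinase paxillus_222 lay between them, with differences of -1.17 from MC, -1.24 from FH and -1.01 from MH. The difference from MH stood at the threshold and was -0.92 without CMC replicate 2, -0.97 without MH replicate 1 and -0.99 without MMN replicate 1 of slide 2. It also fell just short of 2-fold without MMN replicate 2 of slide 2.

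The other 3 isotigs, paxillus_3888, paxillus_446 and paxillus_6761, had the opposite pattern: they were high on MMN and CMC and low on every extract. The files pair them with no gene name. Isotig paxillus_3888 read 13.29, 13.39 and 13.34 on CMC and 13.34, 13.51 and 13.50 on MMN, with overlapping groups and a log2 fold change of -0.11 (interval -0.25 to 0.03, adjusted p = 0.18). On MC it read 11.65, 11.77 and 11.84, and its log2 fold changes on the extracts were -1.70 on MC, -1.91 on FH and -2.27 on MH. Its change on CMC was 1.59 above that on MC (adjusted p = 1.3e-11 from limma), 1.80 above that on FH (adjusted p = 7.3e-09) and 2.16 above that on MH (adjusted p = 3.5e-10).

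Isotigs paxillus_446 and paxillus_6761 were lower on CMC than on MMN by less than 2-fold. For paxillus_446 the CMC arrays read 13.50, 13.74 and 13.60 and the MMN arrays 14.09, 14.18 and 14.35, a log2 fold change of -0.59 (adjusted p = 6.1e-05), against -2.12 on MC, -2.22 on FH and -2.85 on MH. For paxillus_6761 the CMC arrays read 13.06, 13.07 and 13.26 and the MMN arrays 13.68, 13.78 and 14.09, a log2 fold change of -0.72 (adjusted p = 6.1e-06), against -2.37 on MC, -2.27 on FH and -2.46 on MH. In both the CMC arrays lay below the MMN arrays and far above those of any extract. When the fold threshold was dropped, CMC lay above all 3 extracts for 15 isotigs (0.123%) and below all 3 for 36 (0.295%).

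**Figure D4:**
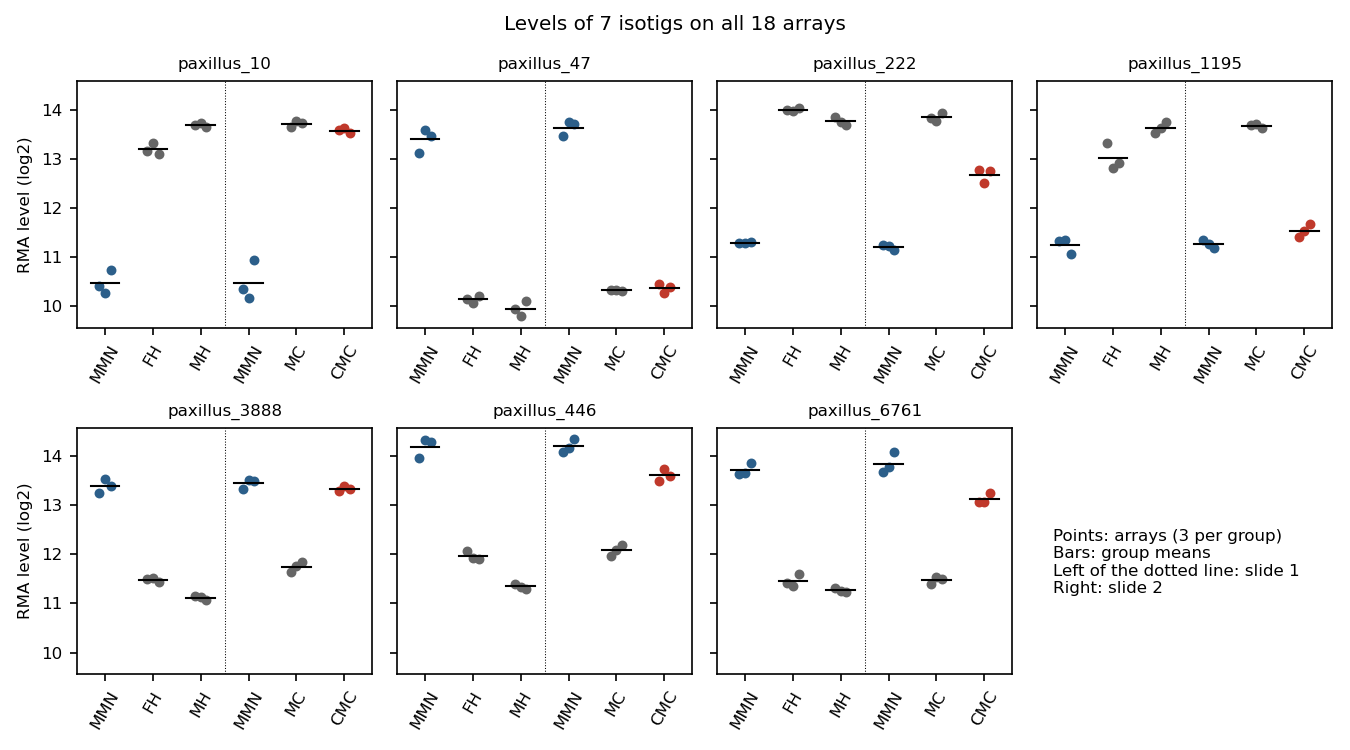
RMA level (log2, y axis) of 7 isotigs on all 18 arrays, by medium and slide (x axis), with points for arrays and bars for group means. The isotigs paxillus_10 and paxillus_47 have CMC beside the extracts, tyrosinases paxillus_222 and paxillus_1195 have CMC between MMN and the extracts or near MMN, and paxillus_3888, paxillus_446 and paxillus_6761 have CMC near MMN with the extracts more than 1 unit lower.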

How the data were processed

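Gene expression was measured on 18 one-colour NimbleGen arrays. The values that the authors deposited are on the log2 scale, 1 for each isotig on each array. Their processing notes name RMA, which corrects background, normalizes between arrays and summarises the probes (10 for 12203 of 12214 isotigs). For the software behind RMA, name and version were not given in the sources used here. Values were taken as log2, since as natural logarithms 63.5% to 66.3% of the isotigs of an array would exceed a 16-bit image. The deposited series table held the same values (largest difference 0), and the number of probes, another deposited value, was used only as a count of probes.

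A linear model with 6 group means was fitted to all 18 arrays with limma 3.58.1 in R 4.3.3 (lmFit, eBayes), with 12 residual and 5.35 prior degrees of freedom. P-values are Benjamini-Hochberg adjusted over all 12214 isotigs within a comparison. The replicates are labelled as biological, but the step at which cultures were parted is not described, so a p-value reflects array-to-array spread only. The scripts were tested on simulated data.

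The comparison, isotigs and lists were chosen with earlier results of these data known. Named isotigs are the 28 with an enzyme name at hand, a part of the study's annotated isotigs, and, outside them, the 2 with the largest rise and the 2 with the largest fall among those called whose groups do not overlap. Isotigs paxillus_3888, paxillus_446 and paxillus_6761 were added after their values were seen. No sequences were used, and no isotig ID matched the reference gene table. The SE column of the deposited files was not used, since its meaning is not stated.

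Alternatives covered other thresholds, the limma treat test, other sets of arrays or MMN controls, dim isotigs, normalization, variance model, the replicate number as a block, and leaving out each array.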

Additional observations from a re-analysis of the deposited data

Results flagged for a closer look

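For the isotigs named above, differences between CMC and an extract that passed the test of the difference itself are listed here. Over the whole array 138 isotigs passed it for MC, 29 for FH and 89 for MH. Each value is the log2 change on CMC minus that on the extract. Between CMC and MC the values were -1.17 for tyrosinase paxillus_222, -2.14 for tyrosinase paxillus_1195, -1.32 and -1.36 for phenylalanine ammonia lyases paxillus_5484 and paxillus_5485, -1.44 for laccase paxillus_8036, -1.19 and -1.35 for P450 isotigs paxillus_3631 and paxillus_3633, and -1.22 for aromatic peroxygenase paxillus_10214. Between CMC and FH they were -1.24 for paxillus_222 and -1.50 for paxillus_1195. Between CMC and MH they were -1.01 for paxillus_222, -2.12 for paxillus_1195, -1.24 and -1.22 for paxillus_5484 and paxillus_5485, and -1.39 for paxillus_8036. In the opposite direction paxillus_3888 differed by 1.59 from MC, 1.80 from FH and 2.16 from MH, paxillus_446 by 1.53, 1.64 and 2.26, and paxillus_6761 by 1.65, 1.55 and 1.74. Leaving out single arrays or repeating the quantile normalization ended the call of the paxillus_222 difference from MH, which was -0.96 after the normalization, and of no other difference named here. Groups of 3 arrays were not examined for single outlying arrays.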

How the results depend on the processing

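The counts depended on the fold threshold. With differences over 0.69, which is 2-fold if the values were natural logarithms, 507 isotigs were called higher and 108 lower on CMC, and 18 of the 28 annotated ones higher. Without a fold threshold the counts were 2320, 2665 and 22, and with the treat test, which asks for a change larger than 2-fold, 47, 22 and 4. For CMC against MC the main count in both directions was 138, and these settings gave 326, 2068 and 60. For CMC against FH it was 29, with 78, 305 and 3, and for CMC against MH 89, with 373, 2943 and 7. An adjusted p under 0.05, fits of fewer arrays, no dim isotigs, other scalings, another variance model and the other MMN controls kept each count within 1.5 times of its main value. The isotigs behind a count were not all the same. With the MMN arrays of slide 1 as control, 143 of the 203 called higher and 38 of the 43 called lower kept their call. Leaving out each array in turn gave 174 to 241 higher, 44 to 49 lower and 10 to 13 annotated isotigs higher, 134 to 147 for MC, 25 to 31 for FH, 80 to 115 for MH and 4 to 6 isotigs apart from all 3 extracts, a count whose alternatives were chosen after seeing the data. With the replicate block, 203 isotigs were called higher and 43 lower. The block left the log2 fold changes as they were, so these counts could change only through the p-values. Same-numbered CMC and MMN arrays deviated with correlations of -0.01, -0.28 and -0.14, none of them positive. Deviations within a group of 3 arrays constrain each other, so these values cannot settle whether the numbers pair the arrays. Of 478 values of the 32 named isotigs over 15 settings, 461 kept direction and call. Fits of fewer groups, no dim isotigs, another variance model and the block left the log2 fold changes as they were. In those settings the direction was fixed in advance and only a p-value could end a call, so the 461 overstate stability. The value of paxillus_10214, near 0, changed sign to -0.00039 after a repeated quantile normalization, -0.18 with the MMN arrays of slide 1, -0.074 with MMN averaged over both slides, and lay between -0.011 and 0.085 without single arrays. The call of paxillus_2772 ended at 1.00, just under 2-fold, with the MMN arrays of slide 1, and that of paxillus_8036 was gained at 1.00 with MMN averaged over both slides.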
